A study of Homo sapiens with 8 samples.

Results

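The rows described here are the small nucleolar RNAs (snoRNAs) in a table of read counts. The cells were derivatives of U2OS, a line grown from a human osteosarcoma, and total RNA was sequenced. They are all rows whose gene identifier maps to a symbol beginning with SNORD or SNORA, 466 of the 80311 rows, of which 276 are SNORD and 190 SNORA. The groups were Flp-In siMePCE, Flp-In siNC, AsiSI siMePCE and AsiSI siNC, with 2 libraries each. Flp-In stands for U2OS-Flp-In-TREx cells and AsiSI for U2OS- AiD-DiVA AsiSI -ER cells. siMePCE is an siRNA against MEPCE, the enzyme that caps 7SK RNA, and siNC is the control siRNA. Every culture was transfected at 0 h and again at 48 h and lysed at 96 h. AsiSI cells of both siRNA groups were also given 300 nM 4-hydroxytamoxifen (4-OHT) for 4 h from 92 h, which in this line brings a DNA-cutting enzyme into action. No 4-OHT is given for Flp-In cells, so line and 4-OHT cannot be told apart. The labels do not say that the 2 libraries of a group came from separate cultures, and p-values then measure only the spread between these libraries.

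SnoRNAs are short nucleolar RNAs that act inside ribonucleoproteins (snoRNPs). Box C/D snoRNAs (SNORD) guide methylation of ribose and box H/ACA snoRNAs (SNORA) guide formation of pseudouridine, mostly in ribosomal RNA and some in the spliceosomal U6 RNA. A few, among them U3 (SNORD3), U8 (SNORD118), U13 (SNORD13), U14 (SNORD14) and U17 (SNORA73), are known for their part in processing the ribosomal precursor. Most human snoRNAs lie in introns of a longer gene and are trimmed out of its spliced introns, whereas U3, U8 and U13 have promoters of their own. Each snoRNA row was therefore read together with the shortest longer row that encloses it on the same strand, called its spanning row.

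The sequences below are those of rows on which the results turn. They are GENCODE 29 transcripts matched by gene identifier, written from 5′ to 3′, with motifs that a search of the transcript's own strand found in capitals. The first motif is TGATGA, the textbook C box. The next is the D box, CTGA near the 3′ end, and the last the ACA box, exactly 3 bases before the 3′ end. The first is U3, from SNORD3A, the row with the most reads of all 466. The counted interval of that row, chr17:19091329-19092027 in hg19, is 699 bases long, whereas the sequence shown has 217 bases. The next set holds a box C/D row that rose in both lines, one that guides modification of U6, and one that fell. The last set holds a box H/ACA row that rose in both lines, a pair of near-identical rows, and U17.
SNORD3A: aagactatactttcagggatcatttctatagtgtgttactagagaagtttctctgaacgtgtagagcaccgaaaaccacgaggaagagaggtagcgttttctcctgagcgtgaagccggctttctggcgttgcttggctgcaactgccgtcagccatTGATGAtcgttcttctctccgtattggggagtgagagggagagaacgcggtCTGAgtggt
SNORD32A: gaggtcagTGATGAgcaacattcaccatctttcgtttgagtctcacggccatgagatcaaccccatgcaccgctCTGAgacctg
SNORD94: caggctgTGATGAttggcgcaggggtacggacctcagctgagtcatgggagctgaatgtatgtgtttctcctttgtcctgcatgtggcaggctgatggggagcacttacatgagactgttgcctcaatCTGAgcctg
SNORD14D: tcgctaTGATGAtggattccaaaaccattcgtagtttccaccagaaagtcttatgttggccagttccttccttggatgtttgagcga
SNORA21: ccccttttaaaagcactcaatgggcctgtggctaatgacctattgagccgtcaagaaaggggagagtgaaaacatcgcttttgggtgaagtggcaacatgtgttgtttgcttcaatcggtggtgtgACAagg
SNORA22: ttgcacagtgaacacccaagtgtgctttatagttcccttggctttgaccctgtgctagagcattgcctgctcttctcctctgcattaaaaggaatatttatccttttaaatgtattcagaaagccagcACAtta
SNORA22C: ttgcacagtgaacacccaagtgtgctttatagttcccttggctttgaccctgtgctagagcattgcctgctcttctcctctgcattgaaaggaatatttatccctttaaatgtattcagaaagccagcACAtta
SNORA73B: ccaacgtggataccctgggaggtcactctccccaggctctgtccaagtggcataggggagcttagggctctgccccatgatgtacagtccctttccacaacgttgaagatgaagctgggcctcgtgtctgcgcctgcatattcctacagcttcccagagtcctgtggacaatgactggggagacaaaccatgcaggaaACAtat

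TGATGA lay in the first 20 bases of 67.0% of the 276 SNORD sequences and of 0.526% of the 190 SNORA sequences. CTGA lay in the last 12 bases of 82.6% of SNORD and of 1.58% of SNORA sequences. ACA stood exactly 3 bases before the end of 1.81% of SNORD and of 65.3% of SNORA sequences. The classes given by the symbols thus differ in these letters. In hg19, SNORD32A lies at chr19:49993222-49993305 inside RPL13A, SNORD94 at chr2:86362993-86363129 inside PTCD3, and SNORA21 at chr17:37009116-37009247 inside RPL23. SNORA22 and SNORA22C, which differ by A87G and T104C (SNORA22 first, positions from its 5′ end), lie at chr7:65220513-65220646 inside CCT6P1 and at chr7:64526377-64526510 inside ENSG00000234585. SNORA73B lies at chr1:28835071-28835274 inside SNHG3 and SNORD14D at chr11:122929617-122929703 inside HSPA8.

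Total counts ran from 41431776 to 53695626 per library, of which snoRNA rows held 48936 to 95454 counts in the 4 siMePCE libraries and 27567 to 41840 in the 4 siNC libraries. SNORD3A alone held 42.4% to 56.9% of them. MEPCE stood at 5.35 and 4.84 CPM (read counts scaled to library size with TMM factors) in Flp-In siMePCE, against 39.9 and 40.1 CPM in Flp-In siNC. It stood at 3.65 and 2.30 CPM in AsiSI siMePCE and at 29.3 CPM in both AsiSI siNC libraries. Mitochondrial rows took 8.24% to 10.55% of counts in siMePCE libraries and 5.23% to 5.91% in siNC libraries. That share moved with the siRNA. Among the other settings counted near the end, 1 left mitochondrial, RN7SK, RN7SL and ribosomal RNA rows out of the TMM scaling. Beyond scaling, the part of that share in the results was not tested. Flp-In siMePCE replicate 1 gave the highest sum of SNORA and of SNORD reads of all 8 libraries. For 140 of 182 tested snoRNA rows it lay above replicate 2 of its group. Flp-In siNC replicate 1 lay above replicate 2 of its group for only 59 of the 182. Counts without each of these libraries are therefore given below. Of the 466 rows, 94 had no read in any library, and 182 (93 SNORA and 89 SNORD) passed the filter on low counts. Of these 182, 157 reached the filter's level of 0.220 CPM in at least 2 of the siNC libraries. The other 25 did not, so they passed mainly through other groups.

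Summed snoRNA reads were more abundant after MEPCE knockdown in both lines. The SNORA rows together gave 697 and 493 CPM in Flp-In siMePCE, against 207 and 290 CPM in Flp-In siNC. In the AsiSI line they gave 503 and 510 CPM under siMePCE and 312 and 383 CPM under siNC. The SNORD rows without SNORD3A gave 142.986 and 113.002 CPM in Flp-In siMePCE, against 70.3 and 75.3 CPM in Flp-In siNC. They gave 102 and 88.7 CPM in AsiSI siMePCE, against 73.7 and 74.8 CPM in AsiSI siNC. In each line both siMePCE libraries lay above both siNC libraries for SNORA and for SNORD. The same held for the sum of the 4811 other rows of at most 300 bases that lie inside a longer row. That sum was 7051 and 5592 CPM in Flp-In siMePCE, against 3563 and 3883 CPM in Flp-In siNC, and 5599 and 5909 CPM in AsiSI siMePCE, against 4005 and 4389 CPM in AsiSI siNC. Row by row, the median log2 fold change of the 421 tested ones was 0.21 in Flp-In and -0.05 in AsiSI. In bulk RNA more cells with a transcript and more transcript per cell cannot be told apart.

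**Figure D1:**
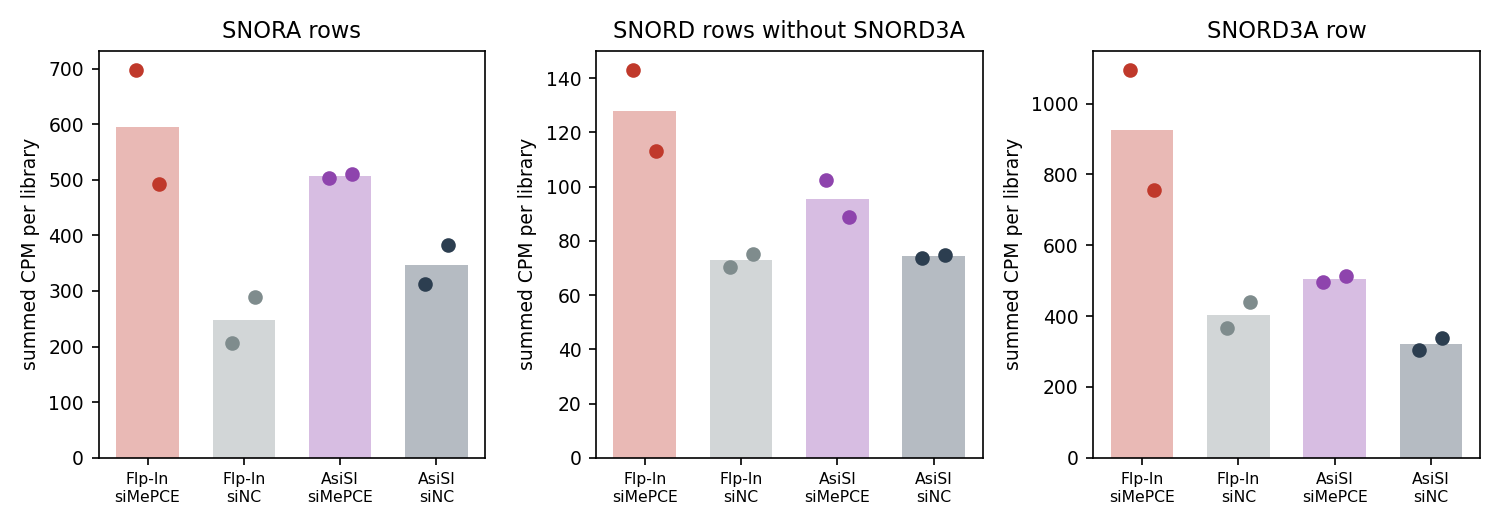
Summed CPM (y axis) of the SNORA rows, of the SNORD rows without SNORD3A, and of the SNORD3A row in each of the 4 groups (x axis); points are libraries and bars the mean of 2. In all 3 panels both siMePCE libraries lie above both siNC libraries of their line, and Flp-In siMePCE replicate 1 is the highest point.

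Row by row, 76 of the 182 tested snoRNA rows rose and 0 fell in Flp-In (edgeR quasi-likelihood test, Benjamini-Hochberg adjusted p under 0.05). At an unadjusted p under 0.05 edgeR had 93 higher and 0 lower, and DESeq2 called 0 lower. Of all 43321 rows tested, 18.1% were called higher and 22.7% lower in that comparison. The median log2 fold change was 1.00 over the tested snoRNA rows and 0.03 over all tested rows. In AsiSI 22 rose and 1 fell, against 16.8% of all rows called higher and 21.3% lower, so the share of 12.1% called higher among snoRNA rows lay below the background there. Their median was 0.37, against 0.04 for all rows. Without AsiSI siMePCE replicate 1, 16 rose and 6 fell in AsiSI with a median of 0.18, and 71 rose and 3 fell in the average. Averaged over both lines, 82 rose and 1 fell, where 25.2% of all rows were called higher and 27.2% lower. With DESeq2 in place of edgeR the totals were 67 in Flp-In, 15 in AsiSI and 64 in the average. SNORA rows made up 51 of the 76 rises in Flp-In, 14 of the 22 in AsiSI and 52 of the 82 in the average. Of the 22 rows that rose in AsiSI, 20 also rose in Flp-In, which is 90.9% of the AsiSI list and 26.3% of the Flp-In list. Of all 182 tested snoRNA rows, 41.8% rose in Flp-In. Over these 182 rows the log2 fold changes of the 2 lines had a Pearson r of 0.318. The 2 contrasts share no library, but they share 1 estimate of the spread from all 8 libraries. Over the 157 rows that reached the filter's level in 2 siNC libraries, 70 rose and 0 fell in Flp-In, 22 rose and 1 fell in AsiSI, and 76 rose and 1 fell in the average. Of all rows chosen in that way, 18.6%, 16.8% and 24.3% were called higher. The median log2 fold change of the 157 was 0.95 in Flp-In and 0.37 in AsiSI, and 119 and 74 of them lay higher in both siMePCE libraries. Of all 38476 rows chosen in that way, 13108 lay so in Flp-In and 11860 in AsiSI. Restricted to a mean of at least 20 counts, 69 of 129 snoRNA rows rose in Flp-In, 22 in AsiSI and 74 in the average, against 21.6%, 19.6% and 27.8% of all rows at that level. There 0, 1 and 1 snoRNA rows fell, against 28.6%, 27.3% and 33.9% of all rows. Both siMePCE libraries lay above both siNC libraries for 141 of the 182 rows in Flp-In and 78 in AsiSI, against 36.3% and 33.5% of all tested rows. Without Flp-In siMePCE replicate 1 the Flp-In count was 40, and without Flp-In siNC replicate 1 it was 44. Without AsiSI siNC replicate 1 the AsiSI count was 11. Calls that held without any single library numbered 37 of 76 in Flp-In, 8 of 23 in AsiSI and 51 of 83 in the average.

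**Figure D2:**
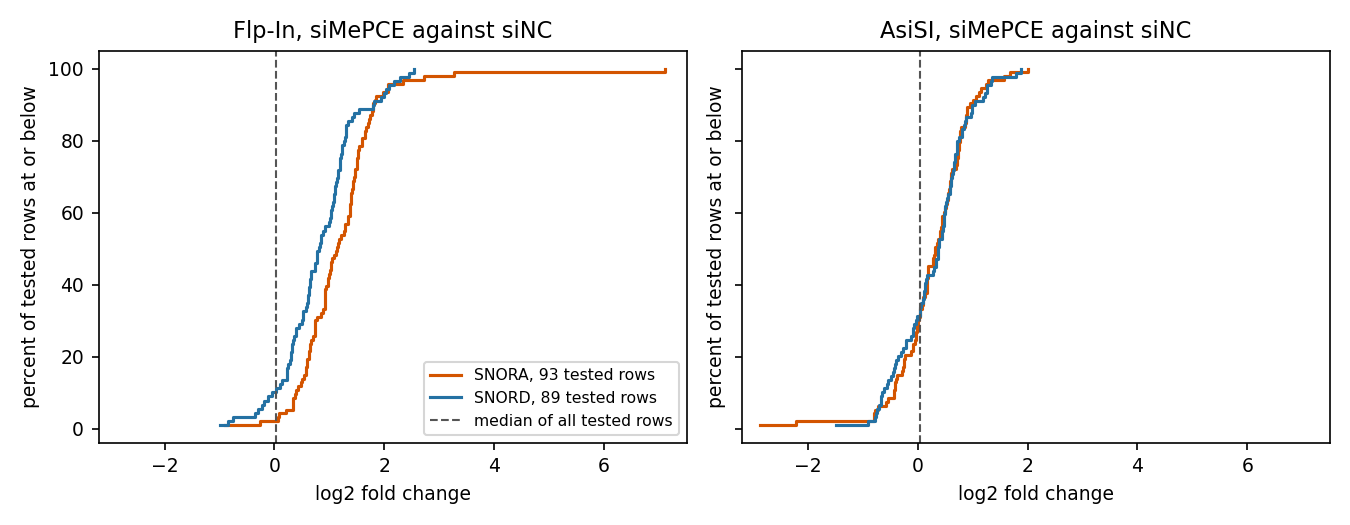
Cumulative distribution of log2 fold changes (x axis, siMePCE against siNC) over the tested SNORA and SNORD rows in Flp-In (left) and AsiSI (right); the y axis is the percent of rows at or below a value and the dashed line the median of all tested rows. SNORA lies to the right of SNORD in Flp-In (medians 1.14 and 0.82), and both curves lie nearly on each other in AsiSI (medians 0.32 and 0.37).

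Of the snoRNAs with promoters of their own, SNORD3A, SNORD118 and SNORD13 rose in both lines. SNORD3A, one of the U3 copies, gave 1095 and 755 CPM in Flp-In siMePCE, against 365 and 440 CPM in Flp-In siNC. It gave 497 and 514 CPM in AsiSI siMePCE, against 305 and 338 CPM in AsiSI siNC. The siMePCE libraries were the higher ones in each line without overlap, a 2.30-fold rise in Flp-In (log2 1.20, SE 0.12, edgeR adjusted p = 8.93e-08) and a 1.57-fold rise in AsiSI (log2 0.66, SE 0.12, adjusted p = 0.000157). SNORD118, the U8 RNA that acts in maturation of the large ribosomal subunit's RNA, gave 7.42 and 3.54 CPM in Flp-In siMePCE, against 0.979 and 1.27 CPM in Flp-In siNC. In AsiSI it gave 3.90 and 3.51 CPM under siMePCE and 1.17 and 0.989 CPM under siNC. Its rise was 4.87-fold in Flp-In (adjusted p = 4.07e-06) and 3.44-fold in AsiSI (adjusted p = 8.29e-05), and it held in both lines without any single library. SNORD13, the U13 RNA, gave 3.51 and 2.11 CPM in Flp-In siMePCE, against 0.676 and 0.790 CPM in Flp-In siNC, and rose 3.82-fold (adjusted p = 0.000184). AsiSI cells gave 1.08 and 0.923 CPM under siMePCE and 0.292 and 0.551 CPM under siNC, a 2.35-fold rise (adjusted p = 0.0173) that was lost without AsiSI siMePCE replicate 1 (0.0739) or AsiSI siNC replicate 1 (0.181).

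Of the 6 rows on this list, 4 rose in Flp-In, 4 in AsiSI and 6 in the average, with a median log2 fold change of 1.501, 0.97 and 1.16. The U3 rows are near-identical copies, SNORD3A being 99.5% identical to SNORD3B-1, so reads may have been split among them in unknown ways. The rows SNORD3B-1, SNORD3B-2 and SNORD3C had means of 53.1, 94.9 and 60.6 counts, against 25235 for SNORD3A. SNORD3C rose 3.49-fold in Flp-In (adjusted p = 0.00197), a call lost without Flp-In siMePCE replicate 1 (adjusted p = 0.164). SNORD3B-1 rose 2.40-fold in AsiSI (adjusted p = 0.00912), a call lost without AsiSI siMePCE replicate 2 (0.124) or AsiSI siNC replicate 1 (0.115). SNORD3B-2 was called in the average alone, at 1.57-fold (adjusted p = 0.00787), and not without Flp-In siMePCE replicate 1 (0.0773).

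Among box H/ACA rows with a mean of at least 20 counts, SNORA21, known as a pseudouridine guide for the large ribosomal RNA, rose most in both lines. It gave 7.97 and 6.62 CPM in Flp-In siMePCE, against 0.466 and 1.05 CPM in Flp-In siNC. Values in AsiSI were 4.96 and 5.99 CPM under siMePCE and 1.13 and 1.58 CPM under siNC. The rise was 9.60-fold in Flp-In (log2 3.26, SE 0.29, edgeR adjusted p = 1.80e-08) and 4.03-fold in AsiSI (log2 2.01, SE 0.27, adjusted p = 3.89e-06), and both calls held without any single library. SNORA22C gave 4.09 and 3.10 CPM in Flp-In siMePCE, against 0.769 and 1.53 CPM in Flp-In siNC, and 2.16 and 2.36 CPM in AsiSI siMePCE, against 0.688 and 0.837 CPM in AsiSI siNC. It rose 3.13-fold in Flp-In (adjusted p = 0.000179) and 2.96-fold in AsiSI (adjusted p = 0.000509). Its copy SNORA22 (98.5% identity) had more reads, with a mean of 552.0 counts against 90.9, and rose 2.63-fold in Flp-In (adjusted p = 7.60e-05). SNORA49, in the EP400 row, gave 2.94 and 2.73 CPM in Flp-In siMePCE, against 0.676 and 0.981 CPM in Flp-In siNC, and rose 3.42-fold there (adjusted p = 0.000347). In AsiSI it gave 1.33 and 2.07 CPM under siMePCE and 0.604 and 1.25 CPM under siNC, which missed the threshold (adjusted p = 0.0565).

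The box H/ACA rows with the most reads per base were SNORA73B, SNORA81, the SNORA63 row ENSG00000200320, SNORA53, SNORA14B, SNORA23, SNORA22, SNORA74A and SNORA32, which with SNORD3A are the 10 highest of all 466 by mean counts per base. All 10 rose in Flp-In. SNORA73B, a U17 RNA that acts in cleavage of the ribosomal precursor, gave 199 and 147 CPM in Flp-In siMePCE, against 47.0 and 72.2 CPM in Flp-In siNC. AsiSI values were 162 and 170 CPM under siMePCE and 91.5 and 130 CPM under siNC. It rose 2.90-fold in Flp-In (adjusted p = 2.75e-07) and by 0.59 on the log2 scale in AsiSI (adjusted p = 0.00672). SNORA81 rose 2.39-fold in Flp-In (adjusted p = 4.02e-06) and 1.49-fold in AsiSI (adjusted p = 0.00824). SNORA53 gave 45.3 and 32.1 CPM in Flp-In siMePCE, against 20.3 and 22.0 CPM in Flp-In siNC, and 39.8 and 44.3 CPM in AsiSI siMePCE, against 26.2 and 25.5 CPM in AsiSI siNC. Its rises of 1.83-fold (adjusted p = 2.07e-05) and 1.63-fold (adjusted p = 0.000225) held without any single library. Without AsiSI siNC replicate 1 the AsiSI calls of SNORA73B, SNORA81, ENSG00000200320, SNORA14B and SNORA22 were lost, with adjusted p of 0.154, 0.104, 0.0531, 0.178 and 0.073. That of SNORA14B was lost as well without AsiSI siMePCE replicate 1 (0.0752) and that of SNORA22 without AsiSI siMePCE replicate 2 (0.0515). DESeq2 did not call these rows in AsiSI, with adjusted p of 0.0805 to 0.162. In Flp-In, SNORA32 rose 1.40-fold (adjusted p = 0.0475), and this call was lost without Flp-In siMePCE replicate 1 (0.374), Flp-In siNC replicate 1 (0.313) or replicate 2 (0.0836), AsiSI siMePCE replicate 1 (0.0514) or AsiSI siNC replicate 1 (0.0553).

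**Figure D3:**
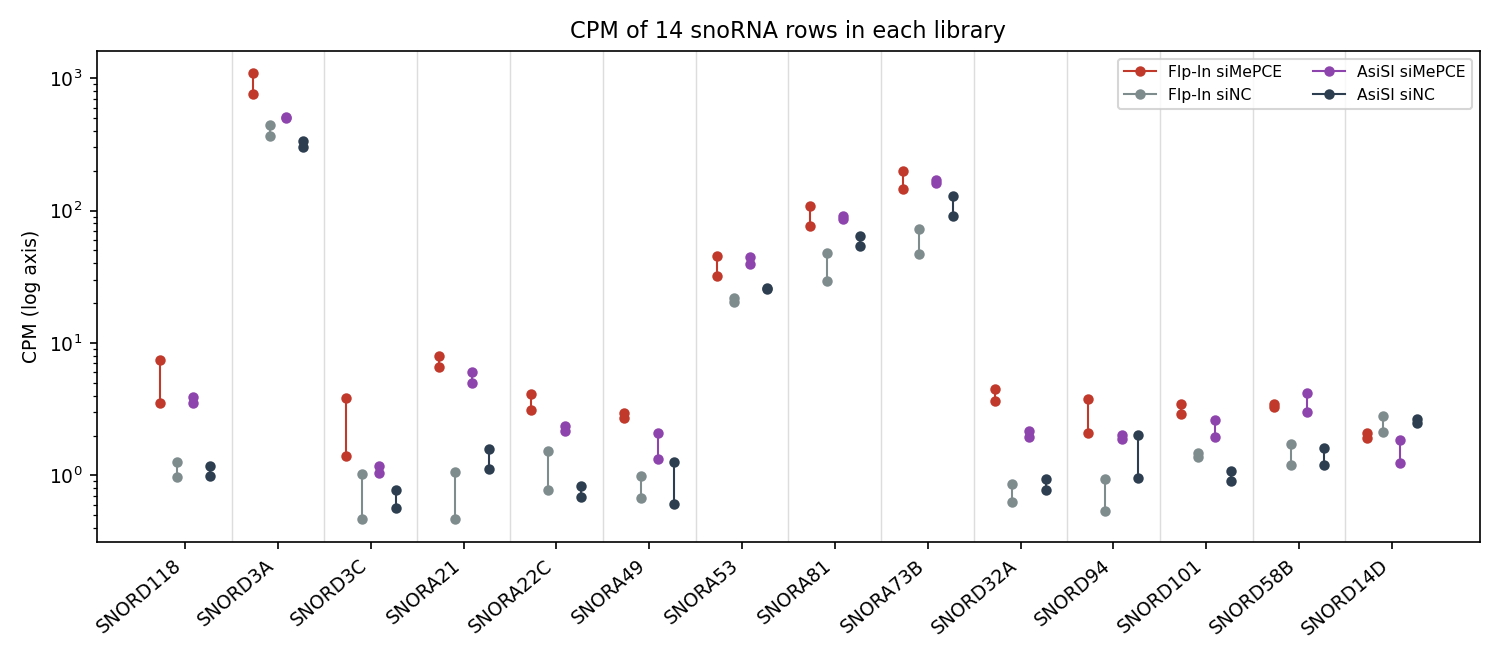
CPM (y axis, log scale) of 14 snoRNA rows (x axis) in each library, with the 2 libraries of a group joined by a line. For SNORD118, SNORA21, SNORD32A and SNORD101 the siMePCE libraries lie above the siNC libraries in both lines, and SNORD14D is the one row of the 14 in which they lie below them.

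The next rows are box C/D rows inside other genes with a mean of at least 20 counts. Rows with promoters of their own, such as SNORD118 inside TMEM107, are left aside here. Among them SNORD32A, a methylation guide in an intron of RPL13A, rose most in Flp-In and in the average. SNORD58B rose most in AsiSI. SNORD32A gave 4.48 and 3.66 CPM in Flp-In siMePCE, against 0.629 and 0.862 CPM in Flp-In siNC. Under siMePCE the AsiSI line gave 1.96 and 2.16 CPM, and under siNC 0.771 and 0.932 CPM. The rise was 5.45-fold in Flp-In (log2 2.45, SE 0.29, edgeR adjusted p = 7.04e-07) and 2.41-fold in AsiSI (log2 1.27, SE 0.28, adjusted p = 0.00117). SNORD101, in RPS12, gave 3.47 and 2.92 CPM in Flp-In siMePCE and 1.38 and 1.48 CPM in Flp-In siNC, and 2.61 and 1.94 CPM in AsiSI siMePCE and 1.08 and 0.913 CPM in AsiSI siNC. It rose 2.23-fold and 2.28-fold (adjusted p = 0.00147 and 0.00171). SNORD58B, in RPL17, rose 2.30-fold in Flp-In (adjusted p = 0.00113) and 2.57-fold in AsiSI (adjusted p = 0.000336). The calls of these 3 rows held in both lines without any single library.

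Of the guides for U6, SNORD94 gave 3.77 and 2.09 CPM in Flp-In siMePCE, against 0.536 and 0.933 CPM in Flp-In siNC, and rose 3.99-fold (edgeR adjusted p = 0.000228). In AsiSI it gave 1.87 and 2.00 CPM under siMePCE and 0.959 and 2.02 CPM under siNC, where the groups overlapped and no call was made. SNORD10 gave 6.22 and 4.63 CPM in Flp-In siMePCE, against 1.89 and 2.08 CPM in Flp-In siNC, and rose 2.73-fold (adjusted p = 2.11e-05). Of 6 listed U6 guides, 4 passed the filter, 2 rose in Flp-In, 0 were called in AsiSI by edgeR, by DESeq2 or at an unadjusted p under 0.05, and 2 rose in the average. SNORD7 and SNORD9 were too low to be tested, at means of 2.8 and 5.4 counts.

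The U14 rows did not move alike. SNORD14D, in HSPA8, gave 1.91 and 2.09 CPM in Flp-In siMePCE, against 2.12 and 2.82 CPM in Flp-In siNC. In AsiSI it gave 1.85 and 1.24 CPM under siMePCE and 2.69 and 2.49 CPM under siNC. It fell by 0.75 on the log2 scale in AsiSI (SE 0.27, edgeR adjusted p = 0.0329) and by 0.53 in the average (adjusted p = 0.0237), the one called fall among the 182 tested snoRNA rows with all libraries in the fit. The AsiSI call was lost without AsiSI siMePCE replicate 2 (adjusted p = 0.25), AsiSI siNC replicate 1 (0.126) or AsiSI siNC replicate 2 (0.071), and DESeq2 did not make it (0.083). The average call was lost without AsiSI siMePCE replicate 2 (0.0959), AsiSI siNC replicate 1 (0.059), Flp-In siMePCE replicate 1 (0.0599) or Flp-In siNC replicate 2 (0.122), and with DESeq2 (0.0737). HSPA8, its spanning row, fell by 0.50 in Flp-In and 0.67 in AsiSI on the log2 scale (adjusted p = 5.10e-06 and 1.02e-07). SNORD14C and SNORD14E, in the same spanning row, were not called in either line. SNORD14B, in RPS13, rose 2.09-fold in Flp-In (adjusted p = 0.00934), a call lost without Flp-In siMePCE replicate 1 (0.0657), Flp-In siNC replicate 1 (0.0597) or Flp-In siNC replicate 2 (0.0515). Of the 6 listed rows for cleavage of the ribosomal precursor, SNORA73B and SNORD14B rose in Flp-In, and SNORA73B rose and SNORD14D fell in AsiSI.

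A read in a snoRNA interval also appears in the row around it. In all 124 same-strand pairs with a mean of at least 20 counts, the snoRNA row had at most the count of its spanning row in every library. Counts of each snoRNA row were therefore set against the rest of its spanning row. Per base, the snoRNA interval held a median of 1.03 times the reads of the rest over these 124 pairs, and 3.22 times over the 66 pairs in which both parts had means of at least 50 counts. The median was 2.49 for 65 SNORA rows, 44 of which stood above 1, and 0.575 for 59 SNORD rows, 19 of which stood above 1. For the 146 other nested rows of at most 300 bases it was 6.95, and 135 of them stood above 1. Standing above the rest was thus not particular to snoRNA rows. Where it stands near or below 1, reads from the interval are no denser than the intron and exon reads around it, and how many of them come from the free snoRNA was not tested. In a single library, the median ran from 1.11 to 1.503 in the siMePCE libraries and from 0.735 to 0.889 in the siNC libraries. SNORA22 stood highest at 127 times the rest of CCT6P1. SNORA53 stood at 12.6 times the rest of SLC25A3, SNORA21 at 5.80 times the rest of RPL23, and SNORD32A at 0.485 times the rest of RPL13A.

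Relative to the rest of the spanning row, 45 of 124 snoRNA rows rose and 2 fell in Flp-In (edgeR with the rest of the spanning row as offset, adjusted over 2159 nested pairs). Of all 2159 pairs, 11.6% were called higher and 12.6% lower. In AsiSI 20 rose and 2 fell, against 10.5% and 10.3% of pairs. In the average 54 rose and 3 fell, against 19.7% and 17.5%. Other nested rows of at most 300 bases, 146 in all, gave 12 higher and 5 lower in Flp-In, 5 and 5 in AsiSI, and 14 and 15 in the average. The median log2 ratio change in the average was 0.44 for snoRNA rows and -0.04 for those other short rows. Without Flp-In siMePCE replicate 1 the Flp-In count of called ratios was 30, and without Flp-In siNC replicate 1 it was 31. The AsiSI count was 9 without AsiSI siMePCE replicate 2 and 10 without AsiSI siNC replicate 1.

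SNORD118 had the largest rise of this ratio in Flp-In and in the average, and SNORA21 in AsiSI. It made up 77.9% (95% Wilson interval 73.9% to 81.4%) and 70.7% (64.6% to 76.0%) of the TMEM107 row's reads in Flp-In siMePCE, against 19.0% (14.4% to 24.7%) and 24.5% (19.3% to 30.7%) in Flp-In siNC. In AsiSI it made up 63.6% (57.7% to 69.1%) and 55.1% (49.3% to 60.8%) under siMePCE and 32.6% (26.0% to 39.9%) and 31.3% (24.8% to 38.7%) under siNC. These intervals cover counting error only. In Flp-In the shares came from 366 of 470 and 171 of 242 reads under siMePCE, and from 42 of 221 and 53 of 216 under siNC. The rest of TMEM107 thus held few reads, and fewer under siMePCE than under siNC in Flp-In. The ratio there reflects both parts. The log2 ratio to the rest of TMEM107 rose by 3.40 in Flp-In (SE 0.28, edgeR adjusted p = 2.35e-08) and by 1.66 in AsiSI (SE 0.27, adjusted p = 0.000208). SNORA21 took 6.20% (5.64% to 6.83%) and 6.70% (6.02% to 7.44%) of RPL23 reads in Flp-In siMePCE, against 0.583% (0.378% to 0.898%) and 1.20% (0.897% to 1.61%) in Flp-In siNC. In AsiSI it took 4.21% (3.70% to 4.79%) and 5.19% (4.61% to 5.83%) under siMePCE and 1.13% (0.868% to 1.47%) and 1.43% (1.15% to 1.76%) under siNC. Its log2 ratio rose by 2.92 in Flp-In (adjusted p = 1.60e-07) and 1.92 in AsiSI (adjusted p = 1.71e-05).

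In several pairs the snoRNA row rose while its spanning row fell. SNORA49 took 2.31% (1.97% to 2.72%) and 2.28% (1.93% to 2.70%) of EP400 reads in Flp-In siMePCE, against 0.398% (0.277% to 0.571%) and 0.583% (0.430% to 0.790%) in Flp-In siNC. EP400, a chromatin remodeller, fell in log2 terms by 0.46 in Flp-In and 0.81 in AsiSI (edgeR adjusted p = 0.000111 and 9.87e-08), and the ratio of SNORA49 to its rest rose by 2.25 and 1.69 (adjusted p = 6.44e-05 and 0.0014). SNORA53 took 29.4% (28.4% to 30.5%) and 23.7% (22.7% to 24.7%) of reads of SLC25A3, the mitochondrial phosphate carrier, in Flp-In siMePCE, against 11.5% (10.8% to 12.3%) and 12.5% (11.8% to 13.3%) in Flp-In siNC. In AsiSI it took 27.1% (26.0% to 28.2%) and 29.8% (28.7% to 30.9%) under siMePCE and 15.2% (14.4% to 15.9%) and 14.6% (13.9% to 15.3%) under siNC. SLC25A3 fell by 0.28 in Flp-In and 0.24 in AsiSI on the log2 scale (adjusted p = 0.00939 and 0.0282). Its Flp-In call was lost without Flp-In siMePCE replicate 2 (0.143) and its AsiSI call without any 1 of the 4 AsiSI libraries (0.0631 to 0.0833). The log2 ratio of SNORA53 to its rest rose by 1.41 and 1.19 (adjusted p = 4.67e-07 and 5.86e-06). Of the 79 rows that rose in the average and have a tested spanning row, 51 lie in a row that rose as well, 16 in a row that fell and 12 in a row that was not called. Over all 173 tested rows with such a spanning row these numbers were 95, 44 and 34, and over the 93 that were not called 44, 27 and 22. In Flp-In these numbers were 45, 7 and 22 of 74, and in AsiSI 11, 2 and 6 of 19 risen rows. A spanning row's count includes the reads of the snoRNA row itself, so agreement of their calls is partly built in. Among rows with a mean of at least 50 counts, further large rises of the ratio in the average were those of SNORA22C (log2 1.59), SNORA5A (1.52), SNORD32A (1.45), SNORD94 (1.31) and SNORA53 (1.30), with edgeR adjusted p of 5.48e-09 to 0.000567.

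**Figure D4:**
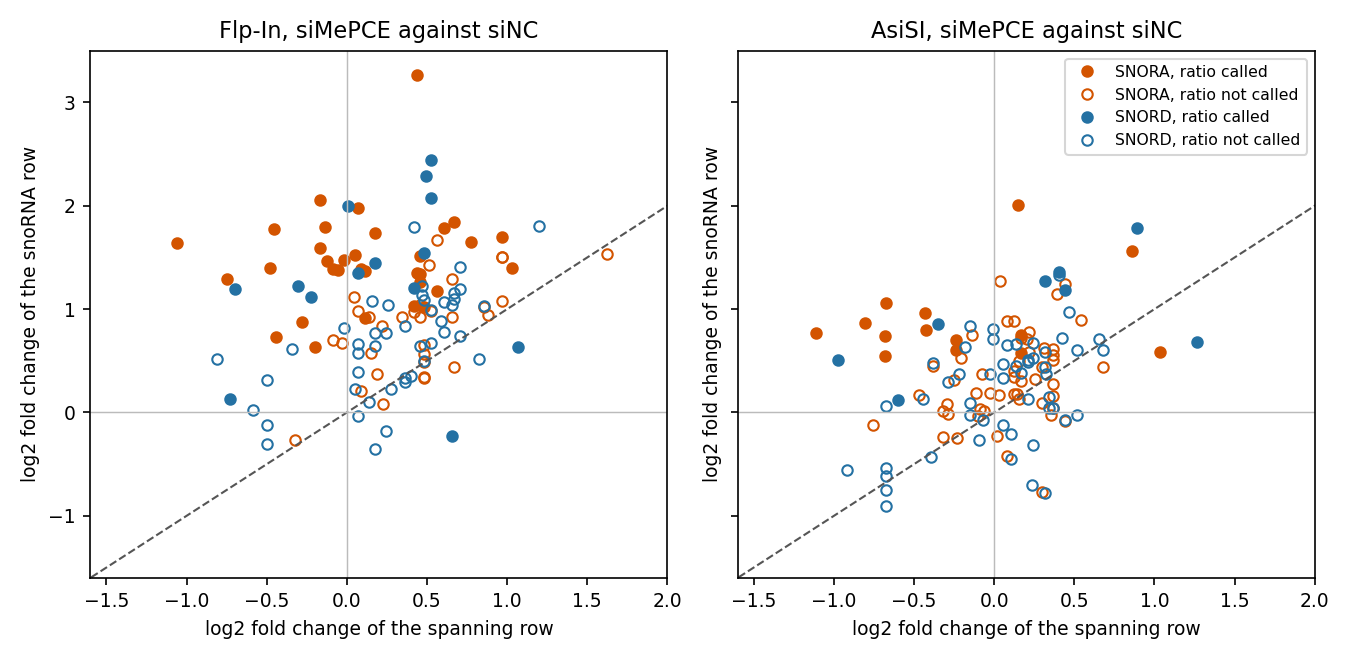
Log2 fold change (siMePCE against siNC) of 124 snoRNA rows (y axis) against that of their spanning rows (x axis) in Flp-In (left) and AsiSI (right); filled points have a called change of the ratio to the rest of the spanning row and the dashed line marks equal change. The change of the ratio had a median of 0.62 in Flp-In and 0.29 in AsiSI, and SNORA21 is the highest point in both panels. Spanning rows are plotted with the reads of their snoRNA rows included.

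The 3 rows whose ratio fell in the average were SNORA73B, SNORD3B-2 and SNORD18C. SNORA73B rose, but SNHG3, the non-coding host around it, rose more, 3.09-fold in Flp-In and 2.04-fold in AsiSI. SNORA73A, the other U17 RNA, has no row of its own here. Any of its reads within SNHG3 would count in the rest, and their part was not tested. SNORA73B took 38.4% (37.8% to 39.0%) and 33.1% (32.5% to 33.7%) of SNHG3 reads in Flp-In siMePCE, against 33.1% (32.0% to 34.3%) and 42.5% (41.4% to 43.7%) in Flp-In siNC, and these overlapped. It took 35.9% (35.2% to 36.6%) and 36.8% (36.1% to 37.4%) in AsiSI siMePCE, against 46.0% (45.0% to 47.0%) and 52.1% (51.2% to 52.9%) in AsiSI siNC. The log2 ratio fell by 0.76 in AsiSI (SE 0.16, edgeR adjusted p = 0.0017) and by 0.45 in the average (adjusted p = 0.00324). With the longest row around it in place of SNHG3 neither was called, with adjusted p of 0.142 and 0.951. The ratio of SNORD18C to the rest of RPL4 fell by 0.59 in the average (adjusted p = 0.0443), and this was lost without any 1 of 7 libraries (adjusted p of 0.0652 to 0.148). That of SNORD3B-2, a copy of U3, fell by 1.01 (adjusted p = 0.000487).

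The snoRNA rows that share a spanning row did not all move alike. The EIF4A2 row, a translation initiation factor, holds 5 tested snoRNA rows, of which 4 rose in Flp-In, 2 in AsiSI and 5 in the average. SNORA81 and ENSG00000200320 rose relative to its rest in both lines. In AsiSI these ratio calls were lost without AsiSI siMePCE replicate 2 (edgeR adjusted p = 0.506 and 0.168) or AsiSI siNC replicate 1 (0.311 and 0.144), and that of ENSG00000200320 also without AsiSI siMePCE replicate 1 (0.0523). The TAF1D row holds 8, of which 3 rose in Flp-In, 2 in AsiSI and 3 in the average. Of 7 rows tested as a ratio there, 1, SNORA8, rose relative to the rest of TAF1D in Flp-In (log2 0.56, adjusted p = 0.026), and leaving out any single Flp-In library ended this call (0.0559 to 0.126). RPL13A holds SNORD32A, SNORD34, SNORD35A and the SNORD33 row ENSG00000199631. SNORD32A and ENSG00000199631 rose in Flp-In (log2 2.45 and 2.08), and SNORD34 and SNORD35A were not called in either line. SNORD34 gave 0.892 and 1.14 CPM in Flp-In siMePCE, against 0.466 and 0.550 CPM in Flp-In siNC. In TBRG4 the neighbours SNORA5A and SNORA5C rose in Flp-In (log2 1.59 and 2.06), and SNORA5B was not called. SNHG17 holds 4 SNORA71 rows, of which 3 rose in Flp-In and 4 in the average.

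**Figure D5:**
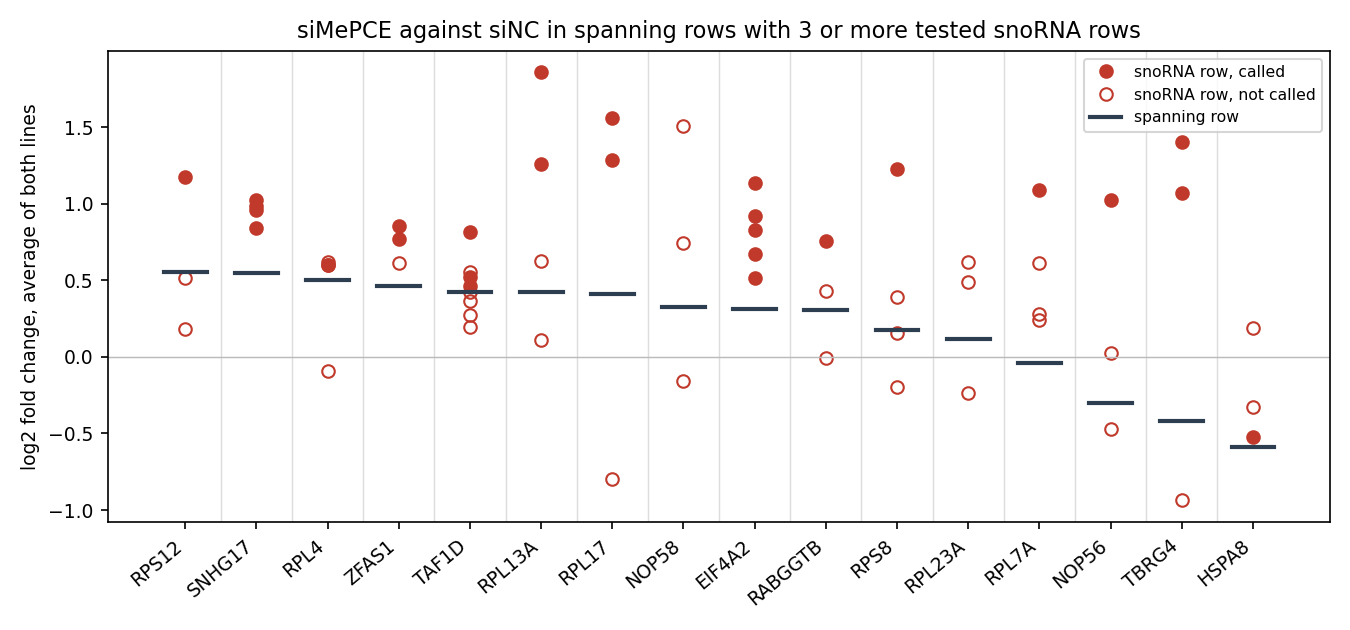
Log2 fold change (y axis, siMePCE against siNC averaged over both lines) of the snoRNA rows in the 16 spanning rows (x axis) that hold 3 or more tested ones; filled points were called, and bars mark the spanning row. In RPL13A and RPL17 the snoRNA rows range from 0.11 to 1.86 and from -0.80 to 1.56, and in SNHG17 all 4 were called.

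The rise was called different between the lines for 6 snoRNA rows, all SNORA and all lower in AsiSI, where 1.66% of all rows were called lower and 2.51% higher. SNORA48 gave 3.72 and 2.75 CPM in AsiSI siMePCE, against 2.42 and 3.25 CPM in AsiSI siNC. In Flp-In it gave 7.03 and 3.85 CPM under siMePCE and 1.38 and 1.89 CPM under siNC. The groups overlapped in AsiSI and not in Flp-In, and the difference of the log2 fold changes, AsiSI minus Flp-In, was -1.55 (SE 0.40, edgeR adjusted p = 0.0284). The same difference was -1.55 (adjusted p = 0.0299) for the SNORA75 row ENSG00000206885, -1.36 (0.0408) for SNORA7A, -1.35 (0.0271) for SNORA71B, -1.13 (0.0494) for SNORA14B and -0.95 (0.0216) for SNORA73B. Each of these calls was lost without Flp-In siMePCE replicate 1, with adjusted p of 0.122 to 0.324, and without Flp-In siNC replicate 1, with 0.114 to 0.253. It was lost as well for all 6 without AsiSI siNC replicate 2, with 0.0695 to 0.236. The number of called differences was 0 without any 1 of these 3 libraries, 3 without AsiSI siMePCE replicate 1, 10 without Flp-In siNC replicate 2 and 14 without Flp-In siMePCE replicate 2. SNORA48, SNORA7A, SNORA14B and ENSG00000206885 have copies of at least 90% identity. The Flp-In log2 fold change was the larger one in 156 of 182 tested snoRNA rows.

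Under siNC, 7 snoRNA rows were higher and 2 lower in AsiSI than in Flp-In, against 14.4% and 15.1% of all rows, and 3.85% of the 182 snoRNA rows were called higher. The same siNC libraries enter the difference between the lines above, so these 2 results are not independent. SNORA73B, SNORA48 and ENSG00000206885 were called in both. SNORA73B gave 91.5 and 130 CPM in AsiSI siNC, against 47.0 and 72.2 CPM in Flp-In siNC (1.86-fold, edgeR adjusted p = 0.000271). ENSG00000206885 gave 1.90 and 1.84 CPM in AsiSI siNC, against 0.723 and 1.15 CPM in Flp-In siNC (2.00-fold, adjusted p = 0.0129). SNORD104, in SNHG25, gave 1.15 and 1.39 CPM in AsiSI siNC, against 2.52 and 2.46 CPM in Flp-In siNC (log2 -0.97, adjusted p = 0.0116). SNORD3A was 0.33 lower on the log2 scale (adjusted p = 0.0429). The total of 9 was 3 without Flp-In siNC replicate 1, 5 without AsiSI siNC replicate 2, 14 without either AsiSI siMePCE library, and 4 with DESeq2. ENSG00000206885 lost its call without replicate 1 of Flp-In siNC (0.182) or of AsiSI siNC (0.0526). SNORD104 lost it without Flp-In siNC replicate 1 (0.0728) or replicate 2 (0.0592), and without replicate 1 of AsiSI siNC (0.0923). SNORD3A lost its call without Flp-In siNC replicate 2 (0.452) or either library of AsiSI siNC (0.232 and 0.0549).

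The rows of the imprinted clusters (SNORD113 to SNORD116, SNORD107, SNORD108, SNORD109 and SNORD64) were near silent. Of these rows, 62 had any read, 0 passed the filter and the highest mean was 7 counts. Near-identical copies limit what single rows show. Of the 182 tested rows, 37 had another snoRNA row of at least 90% identity. Without them, 58 of 145 rose in Flp-In, 13 rose and 1 fell in AsiSI, and 61 rose and 1 fell in the average.

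Genes of the snoRNP proteins and of snoRNP assembly and trimming moved in both directions. Of 25 listed, 12 rose and 4 fell in Flp-In, where 21.6% of all rows with a mean of at least 20 counts were called higher and 28.6% lower. In AsiSI 7 rose and 8 fell, against 19.6% and 27.3%, and in the average 12 rose and 8 fell, against 27.8% and 33.9%. Their median log2 fold change was 0.27, -0.01 and 0.13. FBL, the methyltransferase of box C/D snoRNPs, gave 61.6 and 55.2 CPM in Flp-In siMePCE, against 34.6 and 36.7 CPM in Flp-In siNC, and 61.2 CPM in both AsiSI siMePCE libraries, against 47.0 and 50.2 CPM in AsiSI siNC. It rose by 0.71 (edgeR adjusted p = 5.78e-06) and 0.33 (adjusted p = 0.00953) on the log2 scale. SNU13 of the box C/D core, NOP10 of the box H/ACA core and the assembly factors NAF1, SHQ1, ZNHIT6 and PHAX also rose in both lines. PIH1D1, of the assembly machinery, gave 3.14 and 2.71 CPM in Flp-In siMePCE, against 8.37 and 7.56 CPM in Flp-In siNC, and 3.40 and 3.60 CPM in AsiSI siMePCE, against 9.79 and 10.2 CPM in AsiSI siNC. It fell by 1.44 and 1.51 on the log2 scale (adjusted p = 1.32e-06 and 5.96e-07). RUVBL2, ZNHIT3 and EXOSC10, a nuclear exosome nuclease, fell in both lines as well. DKC1, the pseudouridine synthase, gave 38.9 and 33.5 CPM in AsiSI siMePCE, against 53.8 and 59.2 CPM in AsiSI siNC, and fell by 0.64 on the log2 scale (adjusted p = 3.06e-05). In Flp-In it gave 89.3 and 79.7 CPM under siMePCE and 88.7 and 86.0 CPM under siNC and was not called. In AsiSI, FBL lost its call without AsiSI siNC replicate 1 (0.0961), and SNU13, NAF1, NOP10, SHQ1, PHAX and ZNHIT3 lost theirs without 1 or more of the 4 AsiSI libraries (0.055 to 0.395). NAF1 lost its Flp-In call as well without Flp-In siMePCE replicate 2 (0.109), Flp-In siNC replicate 1 (0.0677) or Flp-In siNC replicate 2 (0.0748). Without AsiSI siMePCE replicate 2 the AsiSI total on this list was 9 in place of 15.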

How the data were processed

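Total RNA was sequenced after ribosomal RNA removal with a directional kit, per the labels' protocols. The authors deposited raw read counts for 80311 rows with hg19 coordinates. Tools named in the submitters' processing notes are featureCounts, STAR, SAMtools, Trim Galore and FastQC; versions are not given in the sources used here. Every row's listed length equals its span, and nested rows never exceeded the row around them on either strand, so a read seems to have counted in each row it overlaps, whatever the strand.

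Rows were filtered with filterByExpr, scaled by TMM and tested with edgeR 4.0.16 in R 4.3.3 over all 43321 rows and 8 libraries (4 groups of 2). The 5 contrasts compared siMePCE with siNC per line, as the average and as the difference of both lines, and AsiSI with Flp-In under siNC. Ratios used the log of the spanning row's other reads plus 1 as offset. A spanning row is at least 5 times as long. Pairs needed means of at least 20 counts. DESeq2 1.42.0 and limma 3.58.1 were alternatives. Simulated counts were used to test the fits. Named rows were those of role lists, the 10 with most counts per base, and the largest called changes at a mean of at least 50 counts. The last were up to 8 per direction for the knockdown contrasts, their average and the ratios, and 5 otherwise. Groups without overlap were required except for the difference between lines and for ratios. A few neighbours in shared spanning rows, the spanning rows themselves and DKC1 were added after their values were seen. Members and lists were chosen with earlier results of these data known.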

Additional observations from a re-analysis of the deposited data

Results flagged for a closer look

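In 6 of 182 snoRNA rows and 5 of 25 snoRNP genes the siMePCE effect differed between the lines when the difference itself was tested (edgeR adjusted p under 0.05). The difference, AsiSI minus Flp-In on the log2 scale, was -1.55 for SNORA48 and for the SNORA75 row ENSG00000206885, -1.36 for SNORA7A, -1.35 for SNORA71B, -1.13 for SNORA14B and -0.95 for SNORA73B. Among snoRNP genes it was -0.79 for NUFIP1 (adjusted p = 0.00935), -0.74 for NOP56 (0.0161), -0.59 for DKC1 (0.0186), -0.46 for ZNHIT6 (0.0362) and -0.43 for NOP58 (0.0488). All 11 were lower in AsiSI, where 1.66% of all tested rows were called lower and 2.51% higher. Without Flp-In siMePCE replicate 1 each of the 11 lost its call, with adjusted p of 0.0603 to 0.324. Mitochondrial rows took 9.63% and 10.6% of counts in AsiSI siMePCE, against 5.89% and 5.91% in AsiSI siNC, and 8.66% and 8.24% in Flp-In siMePCE, against 5.23% and 5.52% in Flp-In siNC. Apart from the setting that left these rows out of the TMM scaling, the part of this share in these differences was not tested.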

How the results depend on the processing

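With single libraries left out, the number of called snoRNA rows ran from 40 to 80 in Flp-In, 11 to 24 in AsiSI, 60 to 81 in the average, 0 to 14 for the difference between lines and 3 to 14 for the lines under siNC. For ratios to the spanning row it ran from 30 to 48, 9 to 22 and 43 to 53, and for snoRNP genes from 12 to 17, 9 to 14 and 16 to 19, in Flp-In, AsiSI and the average. The median reads per base over the rest ran from 0.985 to 1.07, and was 1.25 with the longest spanning row and 3.22 for pairs with means of at least 50 counts. With DESeq2, 15 rows were called in AsiSI and 4 between lines. With no filter on low counts, 16 differences and 15 rows between lines were called. Without rows of at least 90% identity to another, an alternative chosen after seeing the data, the numbers were 14 in AsiSI, 2 for the difference and 5 between lines. The restriction to rows at the filter's level in 2 siNC libraries was also chosen after seeing the data. The causes were not tested. With the replicate number as a block, 81, 28, 86, 9 and 13 rows were called in Flp-In, AsiSI, the average, the difference and between lines. The replicate number is only a number: deviations of same-numbered libraries correlated at 0.0427 to 0.155 over 6 pairs of groups. Over single rows, 1483 of the values with a library left out kept their side of the threshold, 20 gained a call and 185 lost it, and 1498, 23 and 28 did so under other settings; none changed sign. These single rows were the named ones, counted only where called under at least 1 setting. For the difference and for the lines under siNC they had to be called with all libraries in the fit. That none changed sign is therefore partly built in. Rows with means under 20 counts have little depth to show a change.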

Other observations

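The rows of the imprinted clusters, too low to be tested, together held 85 and 39 counts in Flp-In siMePCE, against 30 and 31 counts in Flp-In siNC. They held 117 and 173 counts in AsiSI siMePCE, against 68 and 92 counts in AsiSI siNC. The SCARNA rows, the related RNAs of Cajal bodies, gave 112 and 83.4 CPM in Flp-In siMePCE, against 41.6 and 47.7 CPM in Flp-In siNC. They gave 100.4 and 104 CPM in AsiSI siMePCE, against 51.3 and 53.0 CPM in AsiSI siNC. Of 15 tested SCARNA rows, 8 rose and 0 fell in Flp-In, where 18.1% of all rows were called higher. In AsiSI 5 rose and 1 fell, against 16.8% higher, and in the average 7 rose and 0 fell, against 25.2%. Their median log2 fold change was 1.03, 0.55 and 0.73. The rise was thus not particular to SNORD and SNORA rows.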
